A study of Homo sapiens with 6 samples.

Results

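The coagulation and plasminogen activation genes described here are 9 genes: THBD, F3, TFPI, TFPI2, PLAU, PLAUR, PLAT, SERPINE2 and SERPINB5. They were taken by symbol from the 30727 genes listed in each library, and THBD was selected on its log2 fold change, for its large fall between the groups compared below. The others were taken for their role, with results of this comparison already known. PANC-1 is a cell line grown from a human pancreatic ductal carcinoma. Poly(A) RNA was sequenced from 3 libraries of PANC-1 cells labelled as given siRNA against SUV420H2, called knockdown here, and from 3 labelled as control. The target gene, whose current symbol is KMT5C, encodes a methyltransferase that adds methyl groups to histone H4 at lysine 20, which is common in heterochromatin. Neither the siRNA sequences, the type of control nor the time of harvest is given in the sources used here. The libraries of both groups share the cell line, and no other treatment is labelled. The extraction protocol in the labels describes neurons, microglia and astrocytes rather than PANC-1, so how RNA was taken from these cells is not clear from it; marker levels are given at the end. Replicates are numbered here in deposition order within a group, and the numbers pair no libraries. The labels do not say whether the libraries of a group were cultured separately, so the p-values reflect only the spread among these 6 samples, which may be technical.

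Blood clotting starts when tissue factor (F3), a transmembrane protein, binds factor VII and the pair activates factor X, which leads to thrombin and fibrin. TFPI blocks this start, and thrombomodulin (THBD) captures thrombin on the cell surface and turns it toward activation of protein C, an anticoagulant. Clots and matrix are broken down by plasmin, which urokinase (PLAU) and tissue-type plasminogen activator (PLAT) release from plasminogen. The urokinase receptor (PLAUR) holds urokinase at the cell surface, serpins such as SERPINE2 inhibit the activators, and pancreatic carcinomas are known for tissue factor and urokinase expression.

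The libraries held 20863594 to 38022772 counted reads, with more in every knockdown library than in any control. Counts were scaled to CPM, the usual count relative to library size, with TMM-corrected library sizes. Control replicate 3 stood apart: compared with control replicates 1 and 2, its counts gave a chi-square of 11.3 and 13.6 per degree of freedom, whereas those replicates gave 1.55 and pairs of knockdown libraries 1.98 to 2.26. No call on a member changed when it was left out. The targeted gene, KMT5C, had 9.55, 7.23 and 12.7 CPM in the controls and 6.03, 6.11 and 5.86 CPM in the knockdown libraries. The groups did not overlap, and KMT5C fell by 0.72 on the log2 scale (SE 0.163, edgeR adjusted p = 0.00227), with −0.50 without control replicate 3. This fall did not pass against a 1.5-fold change (adjusted p = 0.305). Of the 15190 genes that passed the low-count filter, 67.3% differed between the groups in edgeR's quasi-likelihood test (Benjamini-Hochberg adjusted p under 0.05), 33.1% higher and 34.2% lower in the knockdown. The test against a 1.5-fold change called 19.7%. The median log2 fold change of all genes tested was −0.01.

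THBD was nearly lost in the knockdown cells, whereas 6 of the other 8 members were higher, F3 did not pass the test and SERPINB5 was at the limit of detection. The 6 that rose were TFPI, TFPI2, PLAU, PLAUR, PLAT and SERPINE2, against a background of 33.1% of genes called higher. Because the set was proposed with results of this comparison known, nothing is read from that count. SERPINB5 did not pass the low-count filter, so 8 members were tested. Apart from THBD, whose separation was fixed by its selection, 6 of the 7 tested members had every knockdown library on the same side of every control, beside 71.3% of all genes tested, and nothing is read from that count either.

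**Figure D1:**
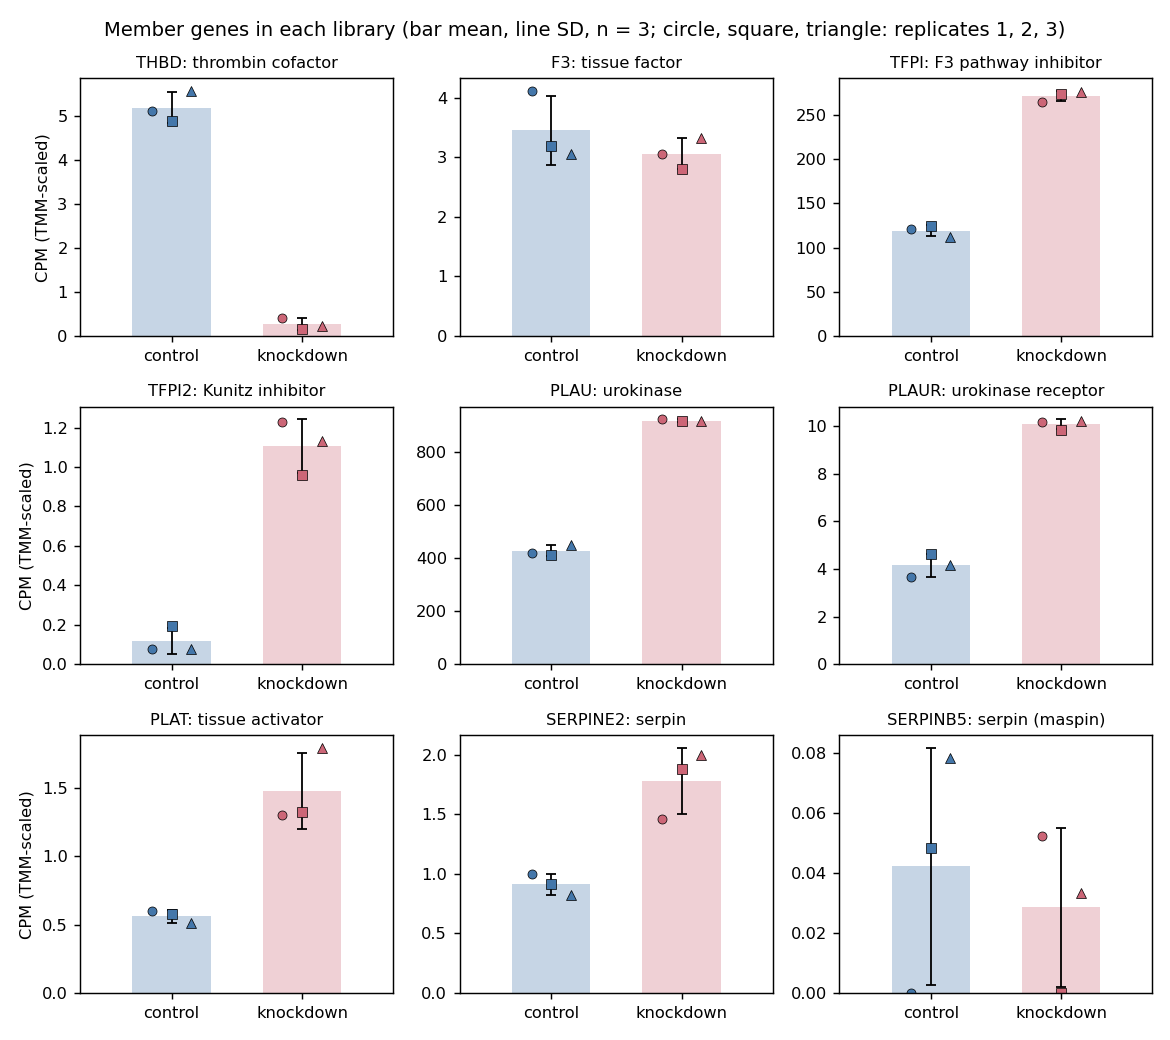
CPM of the 9 members in each library, in control and knockdown cells; bars are means of 3 libraries, lines are SD (drawn down to 0 where they pass it), and circles, squares and triangles are replicates 1, 2 and 3. The 3 knockdown points lie below the controls for THBD and above them for TFPI, TFPI2, PLAU, PLAUR, PLAT and SERPINE2, while those of F3 and SERPINB5 mix with the controls.

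THBD encodes thrombomodulin, the thrombin receptor best known from the endothelial surface (gene ID 7056; GRCh38 chromosome 20, 23045633 to 23049672). The controls had 5.11, 4.87 and 5.56 CPM, from 128, 101 and 142 reads. In the knockdown libraries THBD was at 0.418, 0.147 and 0.233 CPM, on 16, 4 and 7 reads. Every knockdown library lay far below every control, and the groups were 5.18 ± 0.354 and 0.266 ± 0.138 CPM (mean ± SD, n = 3 each). The knockdown level was 5.13% of the control level, a log2 fold change of −4.18 (SE 0.219), and no test is given because THBD was picked for this fall. Only 4 of the 15190 genes tested had a lower log2 fold change: GABRB1 (−5.87), IL1RL1 (−5.08), GABRA4 (−4.54) and TMEM37 (−4.32); FERMT1 (−3.91) came next after THBD. The ratio of control to knockdown reads, corrected for depth, was 18.4, with an exact 95% interval of 12.4 to 28.3 that covers counting error only. This interval leaves out the spread between libraries and the selection of THBD on its fall, so it is a description and not a test. The size rests partly on knockdown replicate 1, which held the most THBD reads of its group: without it the log2 fold change was −4.72. In RNA from whole cultures, fewer cells with a transcript and less of it per cell cannot be told apart.

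The partners of thrombomodulin in the protein C pathway moved both ways. PROCR, the endothelial protein C receptor, which presents protein C to the thrombin-thrombomodulin complex, had 44.5, 43.7 and 47.4 CPM in the controls and 34.5, 31.7 and 34.5 CPM in the knockdown libraries. It fell by 0.43 on the log2 scale (SE 0.0591, edgeR adjusted p = 6.75e-05), which is small beside THBD. PROS1, the cofactor protein S, had 10.6, 9.45 and 9.64 CPM in the controls and 22.6, 22.0 and 23.4 CPM in the knockdown libraries, and rose by 1.20 (SE 0.0727, edgeR adjusted p = 9.98e-08). PROC, protein C itself, was scarce but rose from 0.858 ± 0.261 to 2.38 ± 0.0725 CPM (SD, n = 3 each), by 1.49 on the log2 scale (SE 0.196, edgeR adjusted p = 4.52e-05). GAS6, a relative of protein S that binds receptors of the AXL family, fell by 1.11 (SE 0.113, edgeR adjusted p = 6.01e-06), with means of 37.5 ± 6.80 CPM in the controls and 17.4 ± 1.10 CPM in the knockdown (SD, n = 3 each). ANXA5, which covers the phosphatidylserine surface that clotting factors need, rose by 0.44 (SE 0.0442), and HS3ST1, the sulfotransferase that makes the antithrombin-binding site of heparan sulfate, stood at −2.91 (SE 0.415) from 58 control reads and 10 knockdown reads. Of the 13 genes in the anticoagulant list, 6 were tested, and their median was 0.01. Of these, 3 rose (PROC, PROS1 and ANXA5) and 3 fell (PROCR, HS3ST1 and GAS6), beside 33.1% higher and 34.2% lower of all genes tested.

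The tested genes around THBD did not show its fall. Of the 6 tested genes around it, 3 on each side in order of start, 3 rose and 3 did not pass. Their log2 fold changes ran from −0.11 (GZF1) to 1.29 (NAPB), and 33.1% of all genes tested were called higher. Some lie far off: XRN2, the most distant, starts at 21303331. CD93, an endothelial gene that starts at 23079360 on the same chromosome, had 1 read in the controls and 5 in the knockdown libraries. The endothelial markers were nearly absent: apart from EGFL7 (log2 fold change −0.01), the other 14 of 15 had 0 to 29 reads over all 6 libraries. EMCN was at 0, and PECAM1 had 3 reads in all. The summed level of the endothelial list ran from 21.9 to 32.6 CPM in the controls and from 25.9 to 26.3 CPM in the knockdown, nearly all of it EGFL7.

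F3, which encodes tissue factor (gene ID 2152; GRCh38 chromosome 1, 94529173 to 94541759), kept a low and similar level in both groups. Its promoter is shown because it holds more of the motifs searched than that of any other member searched. The search covered 9 annotated starts of 7 members. THBD had no entry in the RefSeq promoter table, and the promoter of PLAT was not searched. The sequence is the 250 bases before the start on the minus strand (GRCh38.p14, chr1:94541760-94542009), read 5′ to 3′, with matches in capitals.
F3: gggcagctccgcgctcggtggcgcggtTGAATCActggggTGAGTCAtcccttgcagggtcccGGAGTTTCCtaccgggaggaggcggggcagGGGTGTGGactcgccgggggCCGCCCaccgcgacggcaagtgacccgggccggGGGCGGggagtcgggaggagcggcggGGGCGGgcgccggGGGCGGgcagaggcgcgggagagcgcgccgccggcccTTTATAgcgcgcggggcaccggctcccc
The motifs were searched on both strands. The capitals mark, from left to right, 2 AP-1 sites (TGANTCA), an NF-kB-type site (GGANTTTCC), a KLF-type box (CCACACCC, here on the other strand), 4 GC boxes (GGGCGG) and a TATA box (TATAAA, also on the other strand). Over the 35116 promoters of the same length in the table, 6.57% held an AP-1 site, 1.45% the NF-kB-type site, 2.97% the KLF-type box, 42.6% a GC box and 10.7% a TATA box. A match describes the letters and does not show that a factor binds there.

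The controls had 4.11, 3.18 and 3.06 CPM of F3, and the knockdown libraries had 3.06, 2.80 and 3.33 CPM. Control replicate 1 was the highest of the 6, and the other controls lay within or beside the range of the knockdown libraries. F3 did not pass the test (log2 fold change −0.17, SE 0.141, edgeR adjusted p = 0.292; range over the alternatives 0.107 to 1). Without control replicate 1 the log2 fold change was −0.02. The knockdown to control ratio of reads was 0.886, with an exact 95% interval of 0.745 to 1.05 for counting error, from 247 control reads and 293 knockdown reads.

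TFPI, the Kunitz-type inhibitor that blocks factor X activation by tissue factor and factor VII (gene ID 7035; GRCh38 chromosome 2, 187464230 to 187554435), more than doubled. The controls had 120.7, 124.7 and 112.1 CPM, and the knockdown libraries had 264.9, 273.2 and 276.1 CPM. All 3 knockdown libraries were above every control, and TFPI rose from 119.2 ± 6.44 to 271.4 ± 5.84 CPM (SD, n = 3 each; log2 fold change 1.19, SE 0.0482, edgeR adjusted p = 5.16e-09). None of the 6 motifs searched (the 5 above and the E-box CACGTG) was found in its promoter window, where GC content was 38.4% against a median of 58% over all promoters.

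The ratio of F3 to TFPI was lower in every knockdown library than in any control, taken from the deposited RPKM (reads per kilobase of transcript and library size, with a size factor applied by the authors). It was 0.0605, 0.0453 and 0.0484 in the controls and 0.0205, 0.0182 and 0.0214 in the knockdown libraries. No test is given, since the members were chosen with results of this comparison known. In every library TFPI was far above F3 per kilobase.

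TFPI2, a Kunitz inhibitor secreted into the matrix that acts mainly on plasmin and trypsin (gene ID 7980; GRCh38 chromosome 7, 93885396 to 93890753), went from near absence to a low level. The controls had 2, 4 and 2 reads (0.0799, 0.193 and 0.0784 CPM), and the knockdown libraries had 47, 26 and 34 reads (1.23, 0.957 and 1.13 CPM). No knockdown library came near the controls. TFPI2 rose by 3.26 on the log2 scale (SE 0.350, edgeR adjusted p = 7.97e-06), with a knockdown to control ratio of reads of 9.98 and an exact 95% counting interval of 4.89 to 23.7. Its neighbours went the other way or little: of the 6 tested genes around it, 4 fell, 1 rose and 1 did not pass. They ran from −2.80 (SAMD9L) to 0.18 (CASD1), and over all genes tested 34.2% were lower and 33.1% higher. Around other members more neighbours rose: of 6 each, 5 beside TFPI (up to 4.36, COL3A1), 4 beside PLAU and 4 beside PLAUR. Beside F3 the rises were 3, beside SERPINE2 and SERPINB5 2 each, and beside PLAT 1. Nothing is read from these counts.

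PLAU, urokinase, was the most abundant member and more than doubled, and its receptor PLAUR rose by a like amount from a much lower level. The promoters of TFPI2, PLAU and PLAUR, 3 of the members that rose, are set side by side as examples. They are the 250 bases before the RefSeq start in GRCh38.p14: TFPI2 on the minus strand (chr7:93890754-93891003), PLAU on the plus strand (chr10:73910882-73911131, the second of the pair of PLAU starts in the table) and PLAUR on the minus strand (chr19:43670170-43670419).
TFPI2: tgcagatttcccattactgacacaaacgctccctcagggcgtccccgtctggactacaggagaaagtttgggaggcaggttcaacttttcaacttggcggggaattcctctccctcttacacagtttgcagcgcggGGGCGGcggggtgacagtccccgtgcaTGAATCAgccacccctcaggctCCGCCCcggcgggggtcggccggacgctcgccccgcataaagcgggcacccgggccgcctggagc
PLAU: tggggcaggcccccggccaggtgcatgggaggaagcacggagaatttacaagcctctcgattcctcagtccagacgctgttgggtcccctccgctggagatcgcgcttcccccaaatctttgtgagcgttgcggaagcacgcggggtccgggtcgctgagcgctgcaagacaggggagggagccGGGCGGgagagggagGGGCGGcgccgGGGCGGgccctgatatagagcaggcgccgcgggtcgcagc
PLAUR: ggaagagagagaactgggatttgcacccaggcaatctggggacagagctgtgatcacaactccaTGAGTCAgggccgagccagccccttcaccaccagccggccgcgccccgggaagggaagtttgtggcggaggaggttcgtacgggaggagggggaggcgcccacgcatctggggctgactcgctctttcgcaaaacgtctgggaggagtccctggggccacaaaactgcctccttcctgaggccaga
The capitals mark GC boxes and an AP-1 site in TFPI2, 3 GC boxes in PLAU and an AP-1 site in PLAUR. No motif of those searched was present in all of them, and the first PLAU start held none. The AP-1 site was also found before the start of F3, which did not pass the test, and of SERPINB5, which was at the limit of detection. Among other members that rose, TFPI held no match. Each SERPINE2 start held GC boxes or a GC box, the first also an E-box, and neither held an AP-1 site. Counts per gene do not show which start was used.

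**Figure D2:**
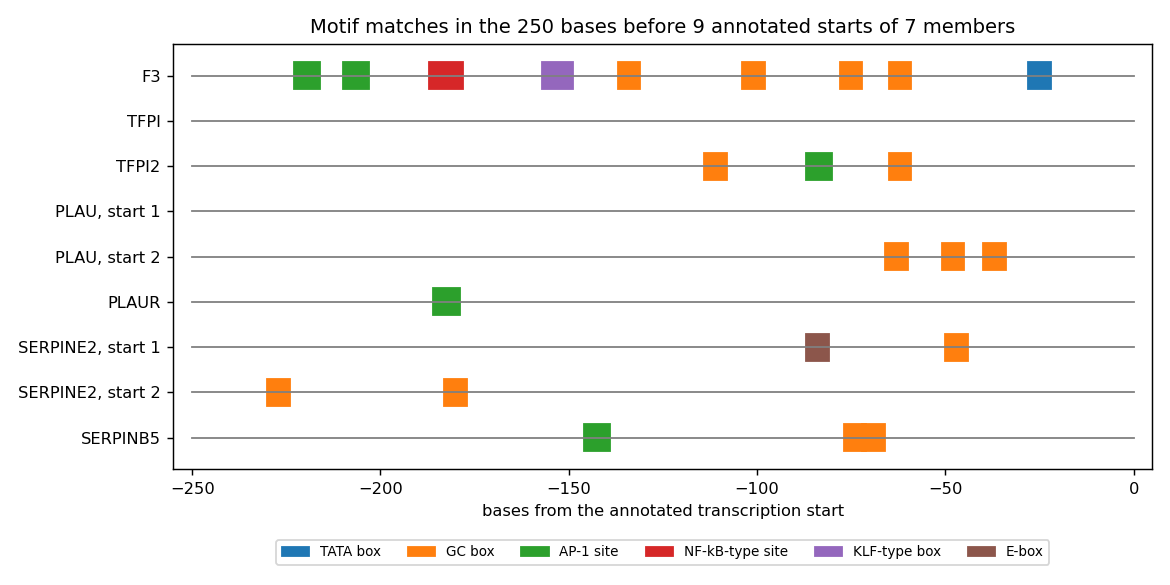
Positions of motif matches in the 250 bases before 9 annotated starts of 7 members, as bases from the start; colours give the motif and grey lines the window searched. F3 holds 9 matches, among them 4 GC boxes and 2 AP-1 sites, while TFPI and the first PLAU start hold none.

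PLAU lies on chromosome 10 of GRCh38, from 73908832 to 73917494 (gene ID 5328). It had 420.7, 411.3 and 450.6 CPM in the controls and 923.1, 915.7 and 915.2 CPM in the knockdown libraries. The knockdown libraries agreed within 0.479% (coefficient of variation), against 4.80% in the controls, and all were above every control. PLAU rose from 427.5 ± 20.5 to 918 ± 4.40 CPM (SD, n = 3 each; log2 fold change 1.10, SE 0.0440, edgeR adjusted p = 4.81e-09). C10orf55 lies on the other strand and shares 7526 bases with PLAU, and no source used here says that counting was by strand, so their reads cannot be told apart with certainty. C10orf55 had 104.3, 97.0 and 125.6 CPM in the controls and 248.8, 238.6 and 241.5 CPM in the knockdown libraries (log2 fold change 1.16, SE 0.0781, edgeR adjusted p = 2.28e-07). With the reads of both genes summed, the log2 fold change was 1.11, an alternative chosen after seeing the data.

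PLAUR, the urokinase receptor, lies on chromosome 19 of GRCh38, from 43646095 to 43670169 (gene ID 5329). It had 3.68, 4.63 and 4.15 CPM in the controls and 10.2, 9.83 and 10.2 CPM in the knockdown libraries. The groups were well apart, with a log2 fold change of 1.29 (SE 0.0979, edgeR adjusted p = 5.77e-07). Within a library, the ratio of PLAU to PLAUR in RPKM was 120.4, 93.5 and 114.1 in the controls and 95.3, 98.0 and 94.2 in the knockdown libraries. These ranges overlapped, and all 3 knockdown ratios lay within the range of the controls.

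PLAT, the tissue-type activator (gene ID 5327; GRCh38 chromosome 8, 42174718 to 42207565), was scarce and higher in the knockdown. The controls had 0.599, 0.578 and 0.509 CPM, from 12 to 15 reads each, and the knockdown libraries had 1.31, 1.33 and 1.80 CPM, on 36 to 54 reads. It rose by 1.38 (SE 0.227, edgeR adjusted p = 0.000239), and the groups did not overlap. PLAU stood far above PLAT in every library: the ratio of their RPKM was 828, 839 and 1043 in the controls and 834, 815 and 600.5 in the knockdown libraries, ranges that overlapped.

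SERPINE2, protease nexin 1, an inhibitor of thrombin, urokinase and plasmin (gene ID 5270), lies on chromosome 2 of GRCh38, from 223975045 to 224039286. It had 0.999, 0.916 and 0.823 CPM in the controls and 1.46, 1.88 and 2.00 CPM in the knockdown libraries. All knockdown libraries were above the controls, and SERPINE2 rose by 0.94 (SE 0.195, edgeR adjusted p = 0.00127). This rise did not pass against a 1.5-fold change (glmTreat adjusted p = 0.0674, the highest over the alternatives, the lowest being 4.73e-05), whereas those of TFPI, TFPI2, PLAU, PLAUR and PLAT did. The ratio of PLAU to SERPINE2 in RPKM was 509, 543 and 662 in the controls and 763, 589 and 554 in the knockdown libraries, which overlapped.

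SERPINB5, maspin, an epithelial serpin with no known inhibition of proteases in solution (gene ID 5268), lies on chromosome 18 of GRCh38, from 63476958 to 63505085. It had 0, 1 and 2 reads in the controls and 2, 0 and 1 in the knockdown libraries. Where it had 0 reads, the level allowed is up to 0.120 CPM in control replicate 1 and 0.110 CPM in knockdown replicate 2 (3 reads of the library, for counting error only). No fold is given, since both groups lay at or below that limit. The gene sits in a cluster of clade B serpins on chromosome 18, and 9 of the 10 cluster genes in the files had 0 to 6 reads over all libraries. SERPINB8 was the exception, with 266 control reads and 251 knockdown reads, and fell by 0.50 on the log2 scale (SE 0.142, edgeR adjusted p = 0.00838).

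**Figure D3:**
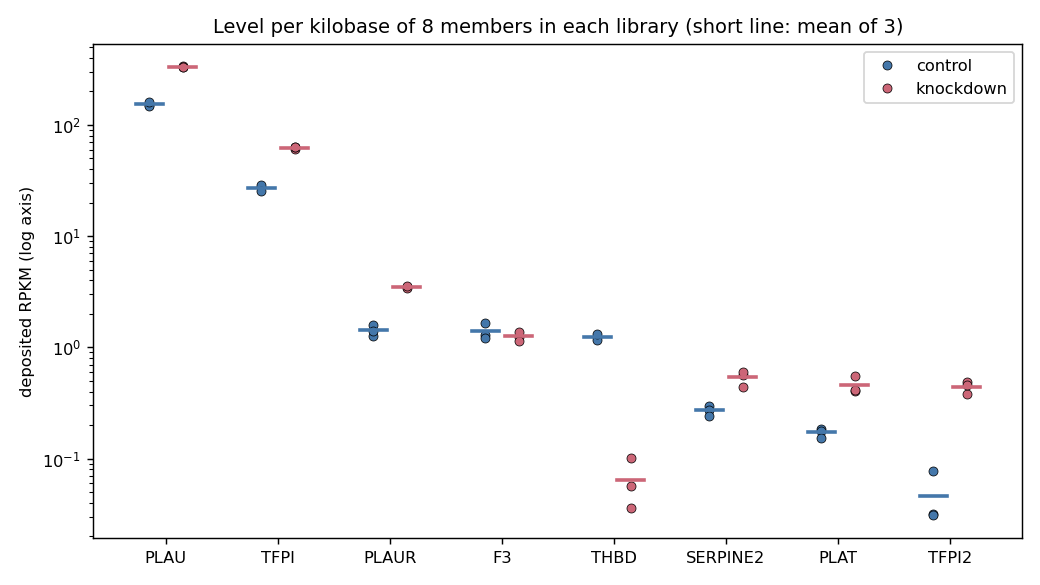
Deposited RPKM of 8 members in each library on a log axis, with short lines at the mean of 3 libraries; SERPINB5 is left out because some of its values are 0. PLAU is highest and TFPI next in both groups. THBD, selected for its fall, drops from beside F3 in the controls to the lowest place in the knockdown.

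Per kilobase, the members spanned a wide range of levels. THBD was the member whose place changed most, but it was selected for its fall, so nothing is read from that change. In deposited RPKM, PLAU was at 153.8 ± 6.13 in the controls and 334.3 ± 1.40 in the knockdown, and TFPI at 27.2 ± 1.68 and 62.7 ± 1.39 (SD, n = 3 each). In the controls PLAUR (1.42 ± 0.164), F3 (1.40 ± 0.241) and THBD (1.24 ± 0.0751) followed with overlapping values, then SERPINE2 (0.272), PLAT (0.172), TFPI2 (0.0464) and SERPINB5 (0.0150), which did not overlap from one to the next. In the knockdown PLAUR (3.49 ± 0.0753) stood clear of F3 (1.25 ± 0.109). SERPINE2 (0.536), PLAT (0.456) and TFPI2 (0.443) came next, each overlapping the next in order. THBD (0.0646 ± 0.0336) was below them all and above SERPINB5 (0.0103).

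Other genes of clotting and fibrinolysis were taken from 8 lists holding 111 genes, of which 69 were tested. In the knockdown 28 of these were higher, 28 lower and 13 unresolved by the test, and their median log2 fold change was 0.04. These are 40.6% higher and 40.6% lower of the genes tested, beside 33.1% and 34.2% of all genes. The lists were drawn up with results of these data known. Against a 1.5-fold change, 14 were higher and 12 lower. PROCR, ANXA5, MCFD2, NQO1, VKORC1L1, F2R, ENO1, ANXA2, S100A10, LRP1, ATP11A and PLSCR1 were among those that did not pass it (adjusted p = 1 for each).

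**Figure D4:**
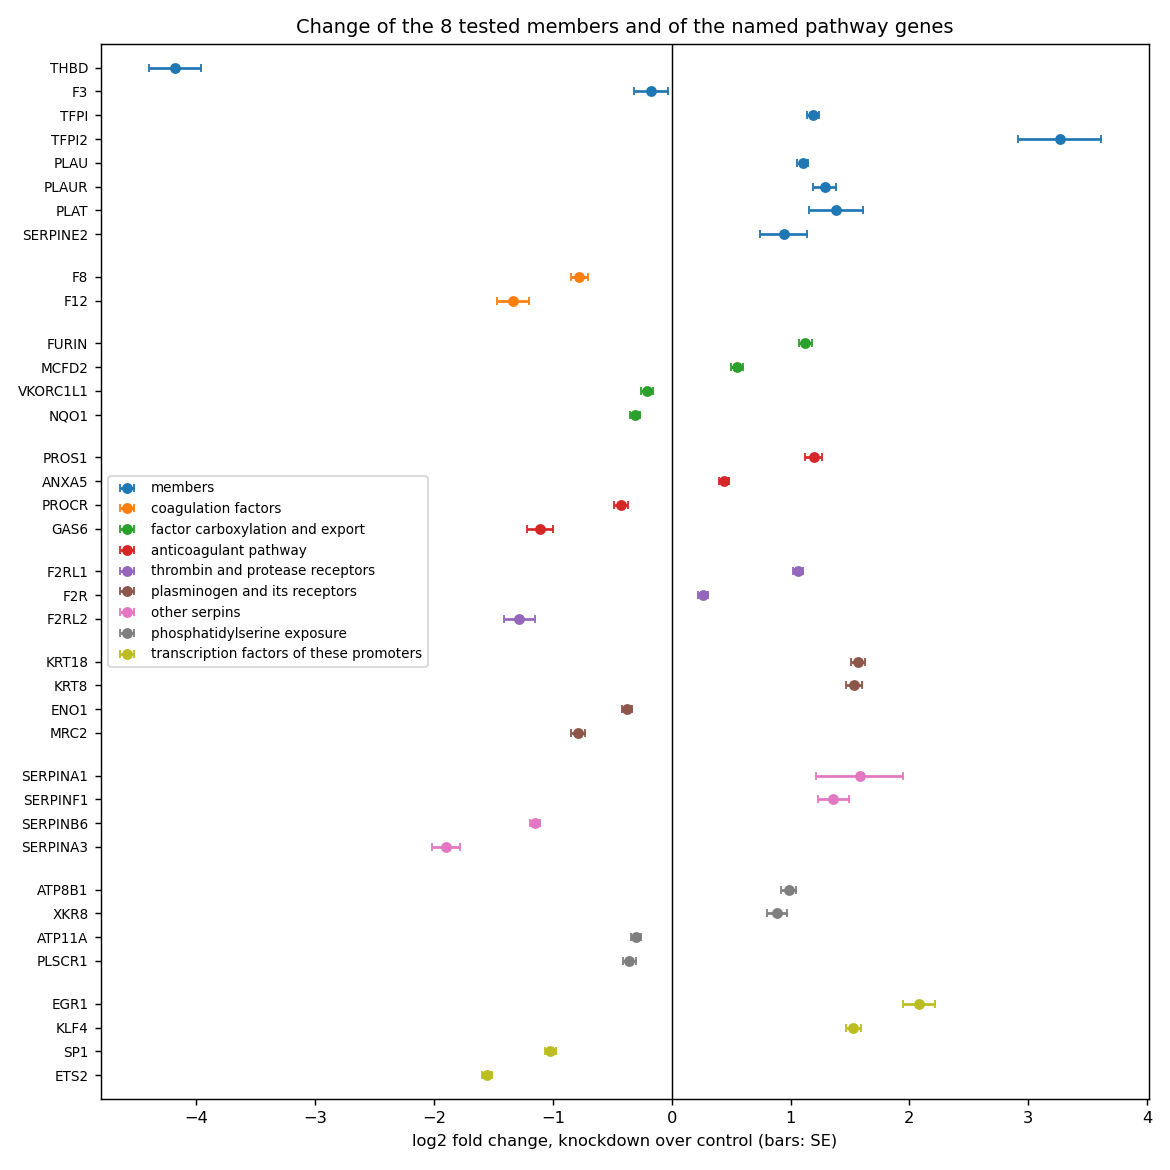
Log2 fold change, knockdown over control, of the 8 tested members and of the named genes of each list, with SE bars; colours give the list and the vertical line is no change. THBD, selected for its fall, lies farthest to the left at −4.18 and TFPI2 farthest to the right at 3.26. Where a list has genes on both sides of the line, this follows from naming genes in each direction.

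The clotting factors themselves were mostly absent: of 16 genes in that list, 14 did not pass the low-count filter. F7 and F10, the ligand and substrate of tissue factor, had 3 and 9 control reads and 6 and 18 knockdown reads, and F5 had 5 and 9. Of the pair that was tested, F8, factor VIII, fell by 0.78 (SE 0.0724, edgeR adjusted p = 2.94e-06), from a mean of 19.3 ± 0.906 CPM to 11.3 ± 0.504 CPM. F12, the contact factor, fell by 1.34 (SE 0.134, edgeR adjusted p = 5.19e-06), from a mean of 11.8 ± 2.33 CPM to 4.69 ± 0.154 CPM (SD, n = 3 each). Genes of factor carboxylation and export were all expressed. Of 8, 4 rose, 2 fell and 2 did not pass, beside 33.1% higher and 34.2% lower of all genes tested. FURIN, the protease that trims many proproteins, rose by 1.13 (SE 0.0570) and MCFD2, a cargo receptor subunit for factors V and VIII, by 0.55 (SE 0.0510), while NQO1, a quinone reductase, fell by 0.31 and VKORC1L1, a vitamin K epoxide reductase, by 0.21.

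Of the 4 receptors for thrombin and related proteases, F2RL1 and F2R were abundant and rose, and F2RL2 was scarce and fell. F2RL1, the trypsin-type receptor that the tissue factor complex can also cleave, had 251.9, 246.9 and 234.9 CPM in the controls and 515.5, 500.7 and 517.3 CPM in the knockdown libraries. It rose by 1.06 (SE 0.0421, edgeR adjusted p = 4.60e-09). F2R, the main thrombin receptor, rose by 0.27 (SE 0.0427, edgeR adjusted p = 2.09e-04), from 132.8 ± 4.17 to 159.6 ± 3.18 CPM (SD, n = 3 each). F2RL2, a cofactor for thrombin signalling, fell by 1.28 (SE 0.130), from a mean of 4.03 to 1.64 CPM, and F2RL3 was not tested, with 2 control reads and 1 knockdown read.

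**Figure D5:**
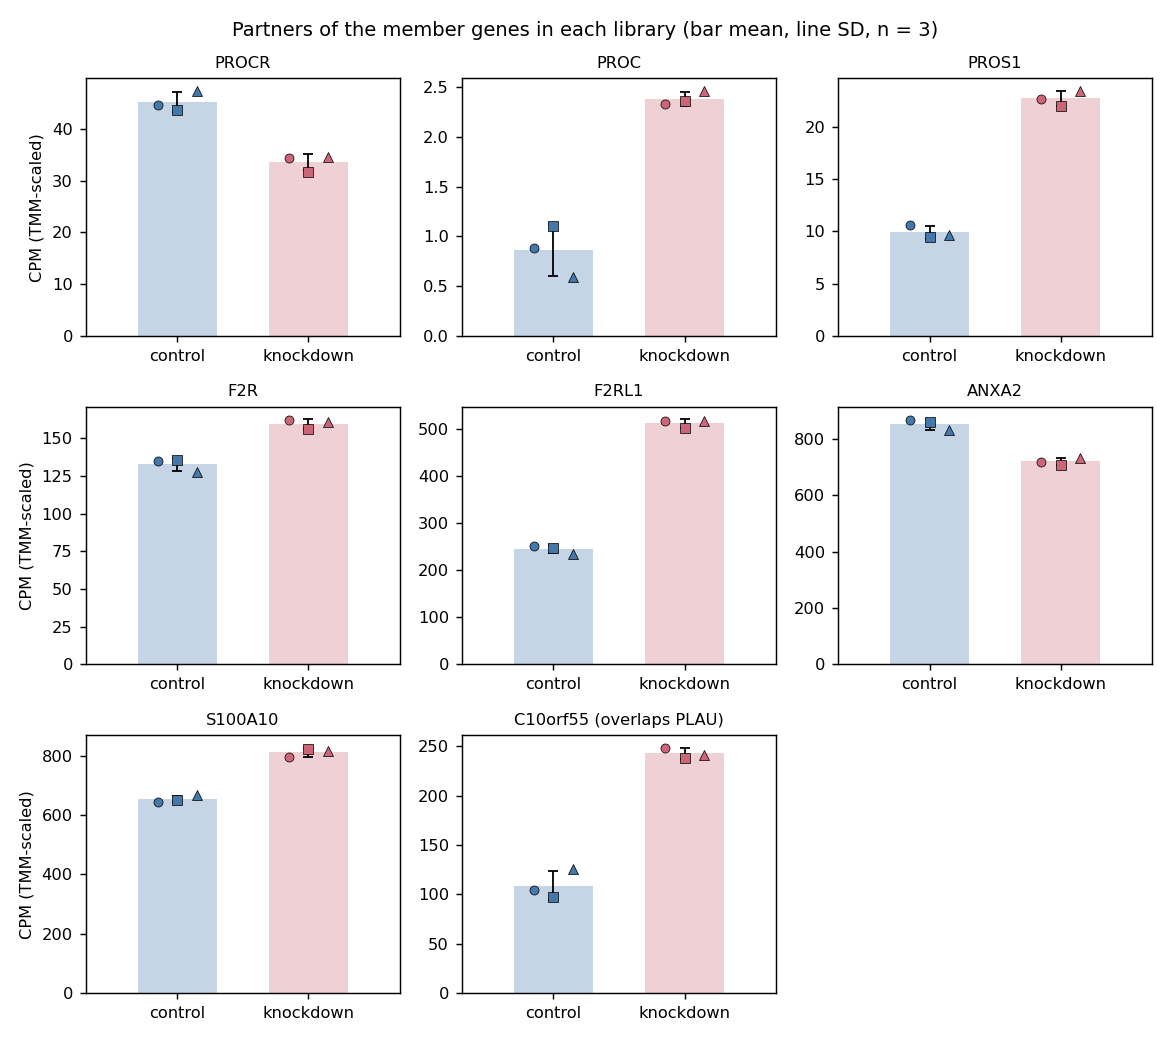
CPM in each library of PROCR, PROC, PROS1, F2R, F2RL1, ANXA2 and S100A10, and of C10orf55, which overlaps PLAU; bars are means of 3 libraries and lines are SD. PROCR and ANXA2 are lower in every knockdown library than in the controls, and the other 6 are higher.

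On the plasminogen side, the keratins and SERPINF2 rose most and MRC2 fell most, while plasminogen itself (PLG) was scarce. PLG had 8 control reads and 3 knockdown reads, and SERPINB2, a urokinase inhibitor, had 1 read in all. SERPINF2, the plasmin inhibitor, rose by 1.21 (SE 0.237) from 34 control reads. Of the proteins that bind plasminogen at the cell surface, S100A10 rose by 0.31 (SE 0.0385), and its partner ANXA2 fell by 0.24 (SE 0.0388). ENO1 fell by 0.37, and the receptor PLGRKT by 0.58 (SE 0.0939). The keratins KRT8 (1.54, SE 0.0691) and KRT18 (1.57, SE 0.0602), which can bind plasminogen and are epithelial filament genes, led the rises. Of the receptors that clear urokinase complexes or bind the urokinase receptor, LRP1 rose by 0.28 (SE 0.0844, edgeR adjusted p = 0.0126), a call lost without knockdown replicate 2 (adjusted p = 0.0638). MRC2 fell by 0.79 (SE 0.0623) and VLDLR stood at −0.14 (adjusted p = 0.218). In the whole list of 16, 12 were tested, of which 6 rose and 5 fell, with a median of 0.03. Among all genes tested, 33.1% were higher and 34.2% lower.

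Most of the other serpins were not detected at a testable level. Of 21, 8 were tested, 2 rose and 3 fell. SERPINF1, an antiangiogenic serpin, rose by 1.36 (SE 0.129), and SERPINA1, antitrypsin, by 1.58 (SE 0.366) from 12 control reads. SERPINA3, antichymotrypsin, fell by 1.90 (SE 0.115) and SERPINB6, an intracellular serpin, by 1.15 (SE 0.0422). Of 12 genes that move phosphatidylserine across the membrane, 11 were tested, 6 rose and 3 fell. Both counts, here and for the serpins, stand beside 33.1% higher and 34.2% lower of all genes tested. The flippase ATP8B1 (0.98, SE 0.0638) and the scramblase XKR8 (0.88, SE 0.0840) rose most clearly. ATP11A, a flippase, fell by 0.30 and PLSCR1 by 0.36.

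Of 21 transcription factors known from work on the promoters of these genes, 19 were tested. In the knockdown 5 rose, 9 fell and 5 did not pass, beside 33.1% higher and 34.2% lower of all genes tested. Nothing is read from these counts. KLF4, which is known to raise THBD in endothelium, rose by 1.53 (SE 0.0634). KLF2, another such factor, stood at 0.68 (SE 0.287, edgeR adjusted p = 0.0556) with overlapping groups. EGR1, a zinc finger factor of the F3 promoter, had 1.40, 1.78 and 1.69 CPM in the controls and 6.87, 7.55 and 6.12 CPM in the knockdown libraries. It rose by 2.08 (SE 0.136, edgeR adjusted p = 1.77e-07). ETS2, a factor of the urokinase enhancer, fell by 1.55 (SE 0.0413) and SP1, which binds GC boxes, by 1.02 (SE 0.0450). The NF-kB genes RELA and NFKB1 fell by 0.59 (SE 0.0580) and 0.90 (SE 0.0608), and KLF6 by 0.66 (SE 0.0398). Among the AP-1 genes of the list, FOS rose by 2.35 (SE 0.231) from 28 control reads, FOSL2 by 0.49 (SE 0.0457) and JUNB by 0.34 (SE 0.125). The groups of JUNB overlapped. JUN fell by 0.29 (SE 0.0859), and JUND and FOSL1 did not pass. The relation of these factors to the members was not tested.

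By Pearson correlation of log2 CPM over the 6 libraries, the genes most like THBD were PGAP2 (r = 0.9996), EZR-AS1 (0.9991), TMEM231 (0.9989), PECR (0.9989) and SIRT3 (0.9986). With 2 groups that lie apart, such values mostly follow the group difference: 3285 of the 12241 genes compared had r above 0.9. For F3, whose groups overlap, 22 of 12240 did, led by SERHL (0.9685), CC2D2A (0.9536) and PIN4 (0.9501), then UBR7 (0.945) and ING3 (0.9408).

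Markers of other cells that make these proteins were low, but not below every member. In both groups the platelet sum and the neuron and astrocyte sum lay above the CPM of TFPI2, PLAT and SERPINE2. The summed level of 7 platelet markers was 1.24 to 1.64 CPM in the controls and 2.12 to 2.39 CPM in the knockdown, with PPBP at 0. That of 7 hepatocyte markers was 0.280 to 0.627 and 1.20 to 1.60 CPM, with 2 and 4 reads of ALB in the groups. Of these, 3 platelet markers were tested and 2 rose (GP1BA and ITGA2B), and the only hepatocyte marker tested, SERPINA1, rose. Among all genes tested, 33.1% were called higher. Both sums were higher in every knockdown library, and their part in the rises of members was not tested. Sums for 8 leukocyte markers (1.83 to 2.43 and 1.96 to 3.42 CPM) and 8 neuron and astrocyte markers (5.99 to 6.66 and 5.99 to 6.84 CPM) overlapped. Of the brain markers, AQP4 was at 0, GFAP had 0 control reads and 13 knockdown reads, and RBFOX3 had 19 and 28. GAD1 had the most, with 318 and 381 reads (means of 4.46 and 3.99 CPM). Of the 3 brain markers tested, GAD1 did not pass, and SLC17A7 rose by 1.30 (SE 0.309, edgeR adjusted p = 0.00311). SYN1 fell by 0.68 (SE 0.272, edgeR adjusted p = 0.0428). Of 7 markers of pancreatic duct cells, 6 were tested; KRT7, KRT8, KRT18 and EPCAM rose and KRT19 and SOX9 fell, and CFTR had 4 reads over all libraries.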

How the data were processed

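Poly(A) RNA of 6 PANC-1 libraries was analysed, 3 per group by the siRNA label. Per the submitters' processing notes, reads were aligned with GSNAP to GRCh38; its version, the annotation, the strand setting and the size-factor method were not given in the sources used here. Per the file headers, the authors deposited the count of reads aligned uniquely to each gene model and RPKM adjusted by a size factor. Symbols and coordinates came from RefSeq (GRCh38.p14) for 27814 of 30727 gene IDs; genes with no symbol were tested too and made up 0.323% to 0.338% of reads.

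Counts were filtered with filterByExpr (minimum count 10, minimum total 15), TMM-scaled and tested in edgeR 4.0.16 (glmQLFit, glmQLFTest, two-sided; R 4.3.3), which was tested on simulated data. P-values were adjusted over all genes tested, with a threshold of 0.05. SE refers to the log2 fold change. The alternatives were library totals, DESeq2 1.42.0 size factors, upper-quartile scaling, 2 other filters, the DESeq2 Wald test, limma-voom (limma 3.58.1), glmTreat at 1.5-fold and leaving out each library.

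The members and lists were chosen with earlier results of these data known, and 2 genes of the lists are not reported here. The named genes are the members, the 2 genes of smallest p per direction and list, direct partners of the members, KMT5C, and the 5 genes most correlated with THBD and with F3. Others (such as HS3ST1, SERPINF2, PLGRKT, VLDLR, SERPINB8, KLF2, KLF6, RELA, NFKB1, the AP-1 genes, C10orf55 and genes beside a member) were named after their values were seen. Promoter sequences came from RefSeq.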

Additional observations from a re-analysis of the deposited data

How the results depend on the processing

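No paired analysis was possible because the labels give no replicate numbers; those used here only name the libraries. Every member tested kept its direction under all alternatives run. Apart from THBD, for which no test is given, each kept its side of the threshold except SERPINE2, which did not pass glmTreat against a 1.5-fold change (log2 fold change 0.94, adjusted p = 0.0674). That test, by its construction, called fewer genes: 1606 higher and 1392 lower of all genes, against 5028 and 5188, and 14 higher and 12 lower in the pathway lists, against 28 and 28. Leaving out each library gave THBD −4.72 to −3.93. The level of PLAU in the knockdown was 332.3 per kilobase with TMM-scaled CPM in place of the deposited RPKM. With a minimum mean log2 CPM of 1, TFPI2, PLAT and SERPINE2 gave no value. SERPINB5 entered the test only with no low-count filter, and no fold is given for it at 3 reads in each group. Depth limits THBD in the knockdown, TFPI2 in the controls, and PLAT, SERPINE2 and SERPINB5. Among the other genes named by rule, 14 results under an alternative no longer passed. Of these, 13 were glmTreat and 1 was the omission of knockdown replicate 2 for LRP1.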
